A study of Mus musculus and Homo sapiens with 12 samples.

Results

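The 9 genes followed here encode the enzymes that write, copy and remove methylation of DNA and a set of proteins that read it: Dnmt1, Uhrf1, Dnmt3a, Dnmt3b, Dnmt3l, Tdg, Mbd1, Mbd2 and Mbd3, and the human genes with the same symbols in capitals. They were taken by name and looked up by Ensembl identifier in every library, where they made up 9 of the 54446 mouse gene identifiers and 9 of the 58721 human ones. All 9 were found in both species. Chromatin-associated RNA (caRNA, the RNA that stays with chromatin when a nucleus is fractionated) from wildtype cells was fragmented at 94 °C for 4 min. Fragments carrying 5-methylcytosine (m5C) were pulled down from 10 µg of RNA with 4 µg of an anti-m5C antibody (IP), or sequenced without pull-down (Input). Which library was IP or Input was read from the titles, since the antibody label does not follow them: every mESC library, IP included, is labelled as having none, and every K562 library, Input included, as having the m5C one. Mouse embryonic stem cells (mESC), labelled as coming from embryos, were grown in 15% serum with LIF, 3 µM CHIR99021 and 1 µM PD0325901, inhibitors of GSK3 and MEK, and were cleared of feeder cells by passages on gelatin. K562, an established human leukaemia line labelled as lymphoblast, was by its labels grown in 10% serum with 1 µg/mL puromycin. The paper names puromycin for its shRNA-carrying K562 lines but not for wildtype K562, and which holds here is not known. No group was given a further treatment, and each of the 4 groups (mESC Input, mESC IP, K562 Input, K562 IP) held 3 libraries.

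DNA methylation in mammals sits mainly on the cytosine of CpG dinucleotides. DNMT1 copies it onto the new strand after replication, and UHRF1 brings DNMT1 to hemimethylated sites. DNMT3A and DNMT3B place methylation on unmethylated DNA, helped in germ cells and early embryonic cells by DNMT3L, which has no catalytic activity of its own. TDG, a glycosylase, excises the oxidised forms that TET enzymes make, which opens the way to base excision repair. MBD1 and MBD2 bind methylated CpG through a methyl-CpG-binding domain, whereas mammalian MBD3 carries that domain but binds methylated DNA poorly and is a subunit of the NuRD remodelling and deacetylase complex, as MBD2 is in another form of it. The measurements below are of m5C signal on the RNAs of these genes and of their abundance on chromatin, not of the DNA methylation that their proteins handle.

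Counts in genes ran from 29007088 to 34752646 per mESC Input library, from 473398 to 592324 per mESC IP library, from 10477119 to 11865285 per K562 Input library and from 93110 to 111286 per K562 IP library. Values are CPM, counts relative to library size, scaled by the trimmed mean of M values (TMM), and a floor of 3 counts came to 0.122–0.143 CPM for Input and 3.58–4.57 CPM for IP of mESC, and to 0.273–0.310 and 25.1–29.5 CPM for Input and IP of K562. The stem cell marker RNAs Pou5f1, Nanog, Klf4, Zfp42, Esrrb and Tdgf1 were present in mESC Input while Sox2 was at 0, with a summed level of 1580 to 1603 CPM for the 7 markers. The fibroblast markers summed to 53.7 to 55.9 CPM in mESC Input, with Col1a1 at 28.7 to 30.2 CPM and Lum at 0. In K562 Input, TAL1, GATA1 and KLF1 were present and HBG2 and HBE1 were at 0 (summed level of the 7 erythroid markers 266 to 273 CPM), and of the markers of other blood cells PTPRC stood at 74.0 to 74.4 CPM and MS4A1 at 0. The marker sums differed little between the libraries of a group, and their part in the results was not tested. Whether a value of 0 means that the RNA was absent was not tested either. Replicates of the K562 Input differed by no more than sampling noise in 2 of 3 pairs (chi-square per degree of freedom 0.912, 0.918 and 1.03), but each stood apart in its GC profile (19.9 to 85.6) and they were counted as 3. In mESC Input the GC profile of replicate 1 stood further apart, at 148.3 from replicate 2 and 139.5 from replicate 3. Replicates 2 and 3 of mESC Input differed by 19.9. The labels do not say whether replicates were separate cultures, so that p-values measure the spread between these libraries, and in such bulk RNA fewer cells with an RNA and less of it per cell cannot be told apart.

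In mESC, Dnmt3a was the 1 gene of the 9 with more IP than Input signal. Dnmt1, Uhrf1, Dnmt3b, Dnmt3l, Tdg, Mbd1 and Mbd2 were lower in IP, by 2.34- to 4.12-fold, and Mbd3 did not pass the test. The paper scaled m5C levels by methylated spike-in RNA, which could not be used here. All IP to Input values are therefore relative to the other genes of a library. With scaling by library size alone, which moved the median of all genes to 0.80, Dnmt3l (-0.25), Mbd1 (-0.43) and Mbd2 (-0.37) lost their calls and Uhrf1 was at -1.07. With Input thinned to IP depth Dnmt3b (-0.66), Dnmt3l (-0.018), Mbd1 (0.30) and Mbd2 (-0.33) lost theirs, with Dnmt1 at -0.46, Uhrf1 at -0.73 and Tdg at -0.95. With TMM scaling and the full Input, 1 gene was higher and 7 were lower by edgeR (adjusted p under 0.05), where 39.9% of the 20244 genes tested were higher and 42.1% lower. The 3 IP values lay above all 3 Input values for 1 of the 9 genes and below them for 7, against 39.0% and 43.8% of all genes. The median log2 IP/Input of the 9 was -1.41, beside -0.17 over all genes tested. All 9 are well-expressed genes, and among the 6587 genes with at least the Input level of the lowest of them (Mbd3, 38.2 CPM), a comparison set chosen after the values were seen, the median was -1.71, 2.82% of genes were higher and 90.8% lower. The 7 genes lower out of 9 is thus a common result at or above this level of expression, and a higher IP signal, as for Dnmt3a, an uncommon one.

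**Figure D1:**
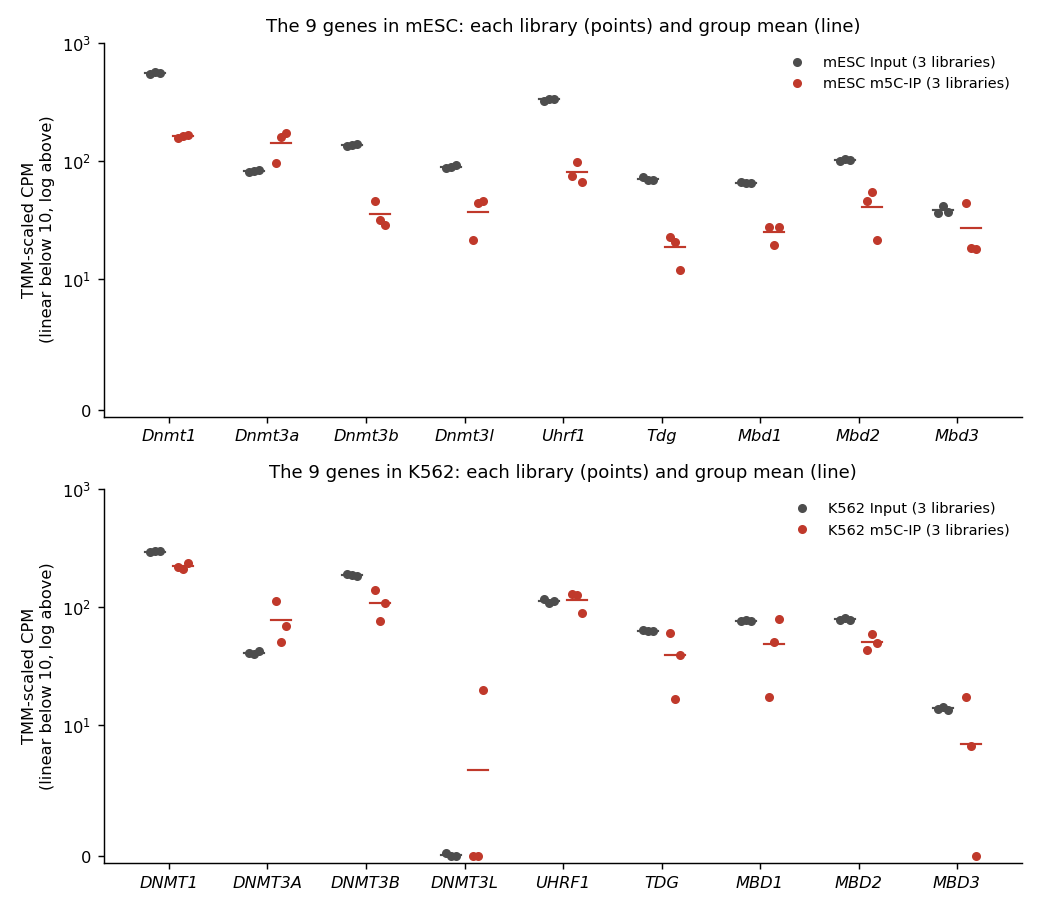
Level of each of the 9 genes in every library, in TMM-scaled CPM (vertical axis, linear below 10 and logarithmic above), for mESC and K562, with Input and IP drawn apart and a line for the mean. In both lines Dnmt3a is the gene whose IP points all lie above its Input points, and the IP points are spread more widely than the Input points.

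Dnmt3a (ENSMUSG00000020661.15, GRCm38 chr12:3806007-3914443, plus strand), a de novo methyltransferase, stood at 80.4, 82.4 and 84.2 CPM in Input and at 95.9, 159 and 170 CPM in IP, from 63, 131 and 143 IP counts. All 3 IP libraries were above all 3 Input libraries, with IP replicate 1 nearest to them. The fitted difference was 0.82 on the log2 scale (SE 0.15, edgeR adjusted p = 7.64e-05, 1.76-fold higher), which is 0.99 above the median of all genes. It lay at the 58.9th percentile of all genes tested and at the 98.8th of the genes at or above the Input level of Mbd3. The exons of Dnmt3a together are longer than those of 98.6% of genes tested. With a correction for GC content the value was -0.063 (adjusted p = 0.669), while the median of all genes moved to -0.88 and Dnmt3a stayed 0.82 above it. With a correction for length it was 0.86, and 1.69 above the median.

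Dnmt3b (ENSMUSG00000027478.15, GRCm38 chr2:153649450-153687730, plus strand), the other de novo methyltransferase, had 134, 136 and 138 CPM in Input and 45.7, 31.6 and 28.6 CPM in IP. Every IP library was far below every Input library. The difference was -1.98 (SE 0.17, edgeR adjusted p = 2.11e-08, 3.94-fold lower). The paralogues thus moved apart, which the ratio of their counts within a library, left as it is by any scaling of libraries, shows without a model. With the correction for GC content that left Dnmt3a at -0.063, Dnmt3b was at -2.86. There were 0.599, 0.606 and 0.610 Dnmt3a counts for each Dnmt3b count in the Input libraries, and 2.10, 5.04 and 5.96 in the IP libraries. The means were 0.605 ± 0.00553 and 4.37 ± 2.02 (SD, n = 3), a difference of 2.72 in mean log2 ratio that kept between 2.43 and 3.18 with any 1 library left out. An exact two-sided permutation test gave p = 0.1, the smallest that 3 libraries against 3 can give, and the ratio was chosen after the values were seen. Dnmt3l (ENSMUSG00000000730.13, GRCm38 chr10:78041947-78063622, plus strand), their catalytically inactive partner, had 86.4, 88.0 and 91.8 CPM in Input and 21.3, 43.8 and 45.3 CPM in IP, again without overlap, and fell by 1.23 on the log2 scale (SE 0.19, edgeR adjusted p = 2.24e-05).

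**Figure D2:**
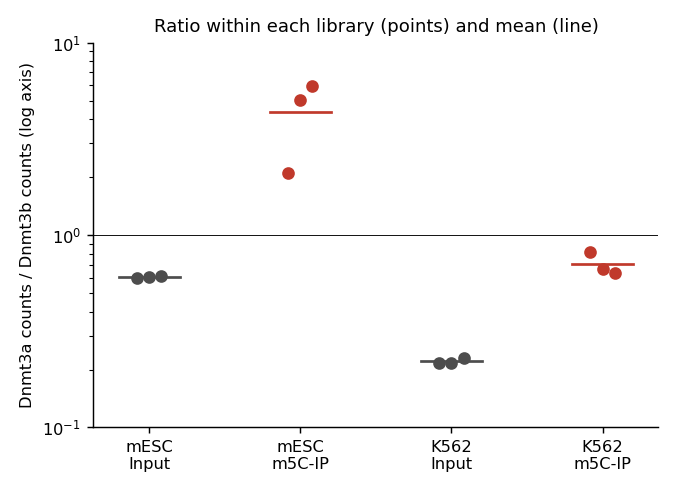
Dnmt3a counts divided by Dnmt3b counts within each library (logarithmic vertical axis), with Input and IP of mESC and K562 drawn apart and a line for the group mean. The IP points lie above the Input points in both lines, from 2.10 to 5.96 in mESC and from 0.636 to 0.813 in K562.

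Dnmt1 (ENSMUSG00000004099.16, GRCm38 chr9:20907209-20959888, minus strand), the maintenance methyltransferase, was the best measured of the 9, with 103, 133 and 138 counts in IP. It stood at 539, 559 and 557 CPM in Input and at 157, 162 and 164 CPM in IP. The IP libraries were close together and well below Input. The log2 difference was -1.77 (SE 0.08, edgeR adjusted p = 1.40e-11, 3.42-fold lower). Uhrf1 (ENSMUSG00000001228.14, GRCm38 chr17:56303321-56323486, plus strand), which guides DNMT1, went from 321, 335 and 335 CPM in Input to 74.6, 98.5 and 66.7 CPM in IP. Its difference of -2.04 (SE 0.12, edgeR adjusted p = 2.43e-10, 4.12-fold lower) lay close to those of Dnmt3b and Tdg. Among the genes at or above the Input level of Mbd3, Dnmt1 was at the 46.8th percentile and Uhrf1 at the 32.0th. That set starts at 38.2 CPM, far below both maintenance genes, and is not matched to their level.

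Tdg (ENSMUSG00000034674.18, GRCm38 chr10:82629828-82650799, plus strand), the glycosylase, had 73.0, 69.1 and 68.6 CPM in Input and 22.8, 20.7 and 11.9 CPM in IP. Its IP values came from 10 to 17 counts and lay below all Input values, and it fell by 1.95 on the log2 scale (SE 0.23, edgeR adjusted p = 9.50e-07). Of the readers, Mbd1 (ENSMUSG00000024561.9, chromosome 18) fell by 1.41 (SE 0.20, edgeR adjusted p = 8.14e-06), from 65.2 ± 0.510 CPM in Input to 24.8 ± 4.59 CPM in IP (SD, n = 3). Mbd2 (ENSMUSG00000024513.16, chromosome 18) fell by 1.35 (SE 0.20, edgeR adjusted p = 1.18e-05), from 102 ± 2.14 to 40.6 ± 17.2 CPM. Mbd3 (ENSMUSG00000035478.14, GRCm38 chr10:80392539-80399550, minus strand), the NuRD subunit, was at 36.2, 41.1 and 37.2 CPM in Input and at 44.1, 18.2 and 17.9 CPM in IP. IP replicate 1 was above Input and the other two IP libraries below, so that the groups overlapped. Its log2 difference of -0.58 (SE 0.27, edgeR adjusted p = 0.0582) did not pass, and was -1.03 and passed without IP replicate 1. The GC content of its exons exceeds that of 99.0% of genes tested.

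**Figure D3:**
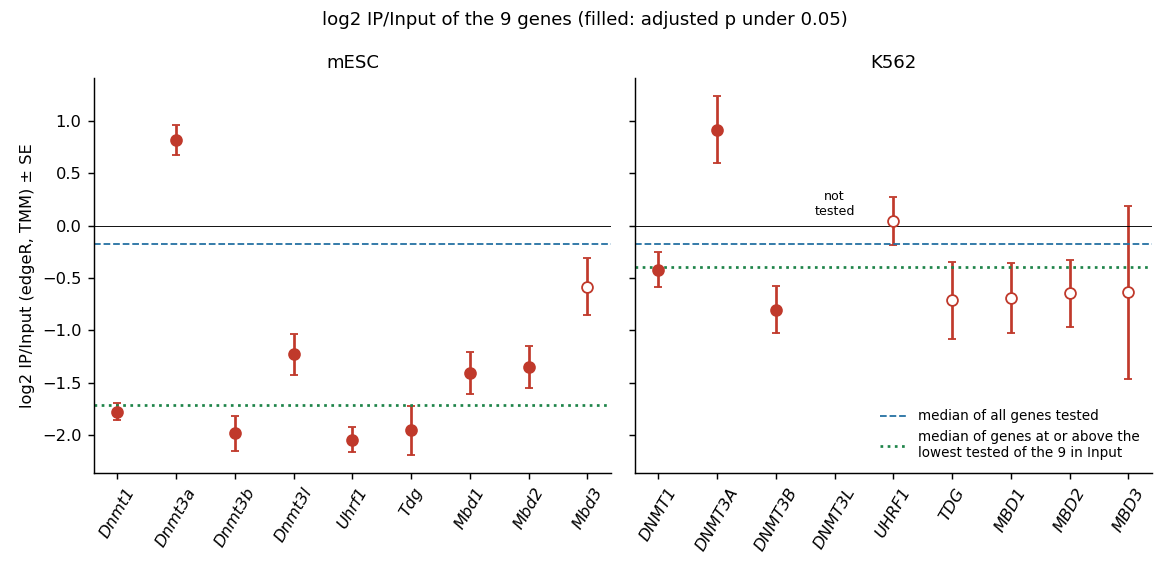
Log2 IP/Input of each gene with its standard error, for mESC and K562, with filled points where the edgeR adjusted p is under 0.05. The dashed line is the median of all genes tested (-0.17 in both lines) and the dotted line that of genes at least as abundant as the lowest of the 9 in Input (-1.71 in mESC and -0.39 in K562), and Dnmt3a is the highest point in each.

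In K562, DNMT3A was again higher in IP than in Input, and DNMT1 and DNMT3B were lower. UHRF1, TDG, MBD1, MBD2 and MBD3 did not pass the test, and DNMT3L was too low to be tested. Of the 8 genes tested, 1 was higher and 2 were lower by edgeR, beside 15.0% and 16.8% of the 14522 genes tested. The IP values lay above all Input values for 1 gene and below them for 4 (DNMT1, DNMT3B, TDG and MBD2), beside 18.6% and 32.2% of all genes. Among the 9316 genes with at least the Input level of MBD3 (13.9 CPM), 5.65% were higher and 26.1% lower, with a median of -0.39, and the 8 genes had a median of -0.64. Their IP values rested on few reads, between 0 and 25 counts a library.

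DNMT3A (ENSG00000119772.16, GRCh38 chr2:25227855-25342590) was at 40.7, 40.1 and 42.3 CPM in Input and at 112, 50.3 and 68.9 CPM in IP, from 13, 6 and 7 counts. All IP values were above all Input values, replicate 1 by far the most. The log2 difference was 0.91 (SE 0.32, edgeR adjusted p = 0.0176, 1.88-fold higher), at the 95.1st percentile of the genes at or above the Input level of MBD3. The call was lost without IP replicate 1 (0.52), with the GC correction (0.67), with counts outside features in the library size (0.63), with no low-count filter (0.58) and with the Input libraries summed to 1 sample (0.92), and the value was above 0 in each. DNMT3B (ENSG00000088305.18, GRCh38 chr20:32762385-32809359) was at 188, 186 and 184 CPM in Input and at 138, 75.4 and 108 CPM in IP, lower in every IP library. It fell by 0.80 (SE 0.22, edgeR adjusted p = 0.00203), and by 0.58, short of the threshold, without IP replicate 2. The DNMT3A to DNMT3B count ratio was 0.216, 0.215 and 0.230 in Input and 0.813, 0.667 and 0.636 in IP. These means of 0.220 ± 0.00809 and 0.705 ± 0.0942 (SD, n = 3) did not overlap (exact two-sided permutation p = 0.1), and the log2 difference of 1.67 ranged from 1.56 to 1.74 with 1 library left out.

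DNMT1 (ENSG00000130816.15, GRCh38 chr19:10133342-10231286) was at 290, 296 and 297 CPM in Input and at 216, 210 and 236 CPM in IP. All IP values were lower, but by a small step. The difference of -0.42 (SE 0.17, edgeR adjusted p = 0.0383) lost its call with any 1 IP library left out, with values from -0.47 to -0.38. The same call was lost with RLE scaling (-0.29), library size alone (-0.20) and DESeq2 (-0.29). So it was with the length correction (-0.37), a replicate block (-0.42) and the Input libraries summed to 1 sample (-0.42). UHRF1 (ENSG00000276043.4, GRCh38 chr19:4903080-4962154) was at 116, 108 and 113 CPM in Input and at 130, 126 and 88.6 CPM in IP, on both sides of Input. Its log2 difference was 0.04 (SE 0.23, edgeR adjusted p = 0.921). TDG (ENSG00000139372.14, GRCh38 chr12:103965822-103988874) had a value of -0.71 (SE 0.37), MBD1 (ENSG00000141644.17, GRCh38 chr18:50266882-50281774) of -0.69 (SE 0.33) and MBD2 (ENSG00000134046.11, GRCh38 chr18:54151606-54224669) of -0.65 (SE 0.32), with edgeR adjusted p of 0.133, 0.103 and 0.118. With 1 library left out TDG ranged from -1.22 to -0.32 and MBD1 from -1.17 to -0.27, and MBD1 passed without IP replicate 3 and with the GC correction (-0.88). TDG, MBD1 and MBD2 all passed as lower with counts outside features in the library size and with no low-count filter. MBD3 (ENSG00000071655.17, GRCh38 chr19:1573596-1592865) had 2, 1 and 0 IP counts against 151, 154 and 131 in Input, an IP to Input ratio of 0.746 over library sizes without TMM factors with an exact (Clopper-Pearson) 95% interval from 0.153 to 2.20, so that no difference was detectable at this depth. DNMT3L (ENSG00000142182.8, GRCh38 chr21:44246339-44262216) had 3, 0 and 0 counts in Input and 0, 0 and 2 in IP, at or under the floor in both. Intervals and floors cover counting error only.

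As shares of the 9 genes' summed counts, the make-up of the group changed between Input and IP. In mESC Dnmt3a held 5.62% of the counts in Input and 25.0% in IP, while Dnmt1 went from 37.7% to 28.5% and Uhrf1 from 22.6% to 14.1%. In K562 DNMT3A held 4.73% in Input and 11.2% in IP, DNMT1 34.0% and 33.0%, and UHRF1 13.0% and 17.2%. The sums behind the IP shares were 351 to 500 counts a library in mESC and 70 to 85 in K562.

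Whether a gene's IP/Input differed between the lines was tested as an interaction over all 12 libraries, on 14235 genes with the same symbol in both species. Species, cell type and culture change together here and cannot be told apart. The value was higher in K562 than in mESC for Dnmt1 by 0.73 (SE 0.21, edgeR adjusted p = 0.00980) and for Uhrf1 by 1.46 (SE 0.35, edgeR adjusted p = 0.00166). Genes at or above the lowest tested of the 9 in Input also had a lower median in mESC (-1.71) than in K562 (-0.39). Among them Dnmt1 kept about its place, at the 46.8th percentile in mESC and the 48.2nd in K562. Uhrf1 was at the 32.0th and the 73.6th. Dnmt3l also passed (edgeR adjusted p = 0.0386), but on 2 IP counts in 1 K562 library, without which the direction turned. That made 3 of 9 higher and 0 lower at an adjusted p under 0.05, beside 16.5% and 14.5% of all genes, with an all-gene median of 0.16. Counted the same way with DESeq2, 3 of 9 passed, with Dnmt1 lost and Dnmt3a passing as lower in K562, so that the Dnmt1 call depends on the scaling of the 2 depths. For Dnmt3a the difference was -0.53 (SE 0.39, adjusted p = 0.330) by edgeR, and -0.97 and past the threshold with median-ratio (RLE) scaling. The fits of each line alone, scaled apart, gave Dnmt3a 0.82 in mESC and 0.91 in K562. The sign of its difference thus depends on the scaling and on the genes fitted. Dnmt3b differed by 0.55 (SE 0.34, edgeR adjusted p = 0.236) and Tdg by 0.62 (SE 0.57, edgeR adjusted p = 0.457). The 3 readers gave 0.09 for Mbd1, 0.07 for Mbd2 and -0.68 for Mbd3, with SEs of 0.47, 0.49 and 1.02, too wide to tell a difference from none.

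The deposited m5C peaks, called by the authors in each mESC IP library on each strand, numbered 11146, 15404 and 15797. Of the 9 genes, Dnmt3a alone held a peak on its own strand, where 22.9% of the 20237 genes tested held one, and 5 of the 9 held one on either strand, beside 41.2%. Dnmt3a is also the longest of the 9, and of the 2515 genes at least as long (108437 bp), 58.9% held a peak on their strand. Its own strand carried 0, 2 and 2 peaks in replicates 1, 2 and 3, in 3 regions. None was found in all 3 replicates, and the region at chr12:3874002-3874182 was found in 2. Dnmt1, Dnmt3b, Uhrf1 and Tdg each had 1 region on the opposite strand in 1 replicate, and Dnmt3l, Mbd1, Mbd2 and Mbd3 had none. Over all peaks in genes, 9905 were recorded on the gene's strand and 13630 on the opposite one, so the recorded strand may not be that of the RNA. On the opposite strand of Dnmt3a 4 more regions lay in its span, which the antisense gene Dnmt3aos overlaps. Whether any of them lies in Dnmt3aos was not tested.

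The region in Dnmt3b, on its opposite strand in 1 replicate, is not printed. The sequences under the own-strand regions of Dnmt3a, and under the region of Dnmt1 for comparison, are shown because peaks were called there. A peak is an interval of the IP signal and places no m5C on a given base. The paper required a peak to be present in every biological sample, and no printed region was found in every replicate. The sequences were read from GRCm38 (mm10) on the plus strand, and only intronic bases are printed. The second region of Dnmt3a runs on to 3866061, and 77 of its 195 bases, which are exonic, were left out. Capitals mark the letters CNGGG, the G-rich context of many NSUN2 sites, and CTCCA, reported for NSUN6, 2 enzymes that methylate RNA cytosines. The first lies between Dnmt3a exons that end at 3838814 and start at 3849635, the second is the intronic stretch up to the exon that starts at 3865985, and the third, found in 2 replicates, lies between exons that end at 3873428 and start at 3875662.
Dnmt3a chr12:3841704-3841853: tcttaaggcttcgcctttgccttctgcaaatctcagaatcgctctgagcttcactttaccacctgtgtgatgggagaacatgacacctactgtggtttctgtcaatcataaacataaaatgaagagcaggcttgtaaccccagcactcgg
Dnmt3a chr12:3865867-3865984: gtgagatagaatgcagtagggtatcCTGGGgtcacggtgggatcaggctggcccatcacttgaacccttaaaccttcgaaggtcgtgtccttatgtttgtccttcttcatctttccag
Dnmt3a chr12:3874002-3874182: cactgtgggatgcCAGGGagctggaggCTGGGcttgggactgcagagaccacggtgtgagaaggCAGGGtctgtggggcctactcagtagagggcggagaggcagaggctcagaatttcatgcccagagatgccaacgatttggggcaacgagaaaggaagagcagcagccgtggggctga
Dnmt1 chr9:20924743-20924892: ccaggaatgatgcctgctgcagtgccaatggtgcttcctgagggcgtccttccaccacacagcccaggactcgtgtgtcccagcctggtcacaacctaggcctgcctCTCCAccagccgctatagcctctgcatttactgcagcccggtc
The region found in 2 replicates is 60.8% GC and holds CNGGG 3 times in its 181 bases. The Dnmt3a stretches printed above it hold 0 and 1 on the strand shown. The Dnmt1 region holds 1 CTCCA and no CNGGG on the strand shown, and CNGGG 3 times on the other strand, which is that of Dnmt1. Both strands were searched, and the motifs can share letters where they meet. In the central 150 bases of 34977 merged peak regions, CNGGG was present on the recorded strand in 51.2% and on either in 69.5%, and CTCCA in 19.3% and 34.9%. A match of so short a motif is thus frequent and marks no site.

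**Figure D4:**
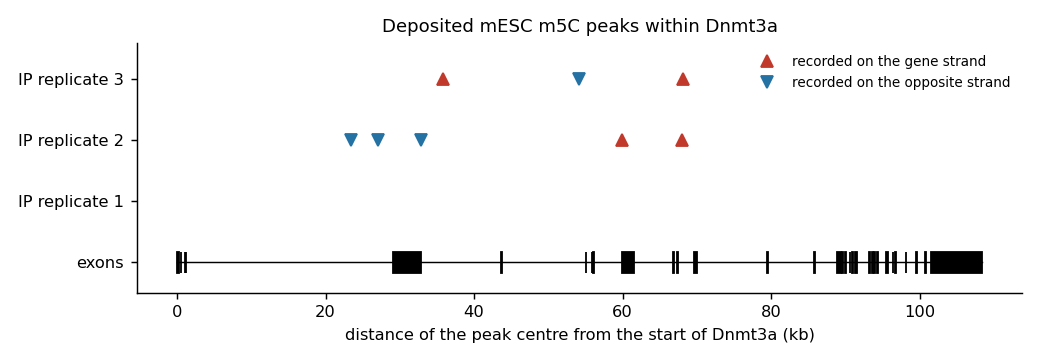
Positions of the deposited m5C peaks of the 3 mESC IP libraries within Dnmt3a, in kilobases from the start of the gene, with triangles that point up on its own strand and down on the opposite one, above its exons. Own-strand peaks appear in replicates 2 and 3, and at 1 place in both.

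The Input libraries gave the abundance of these RNAs on chromatin, compared between genes per kilobase of exon. In mESC, Uhrf1 and Dnmt1 led at 77.6 ± 1.84 and 74.8 ± 1.49 CPM per kilobase (SD, n = 3), and these 2 overlapped. Mbd2 followed at 31.8 ± 0.665, Dnmt3l at 29.7 ± 0.922, Dnmt3b at 26.7 ± 0.381, Mbd3 at 19.2 ± 1.31, Tdg at 13.1 ± 0.452, Mbd1 at 9.73 ± 0.0760 and Dnmt3a at 4.95 ± 0.115, each without overlap with its neighbour. The maintenance genes led and Dnmt3a was last. In CPM with no division by length Dnmt1 (552) and Uhrf1 (330.4) led as well, but Dnmt3a (82.3) came before Tdg, Mbd1 and Mbd3, and Mbd3 (38.2) was last. In K562 DNMT3B led at 27.1 ± 0.320, before UHRF1 at 21.9 ± 0.782, DNMT1 at 19.1 ± 0.244, MBD2 at 13.9 ± 0.321, TDG at 12.9 ± 0.206 and MBD1 at 11.4 ± 0.0790. DNMT3A at 2.98 ± 0.0813, MBD3 at 1.75 ± 0.0522 and DNMT3L at 0.0489 ± 0.0847 closed the order, in which no neighbours overlapped. In CPM with no division by length DNMT1 led at 294, above DNMT3B at 186, without overlap. In IP only 1 of the 8 neighbouring pairs was free of overlap in either line. The exonic lengths used are the union of all annotated exons, 7909 bp for human MBD3 and 1987 bp for mouse Mbd3, which lowers the human value.

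**Figure D5:**
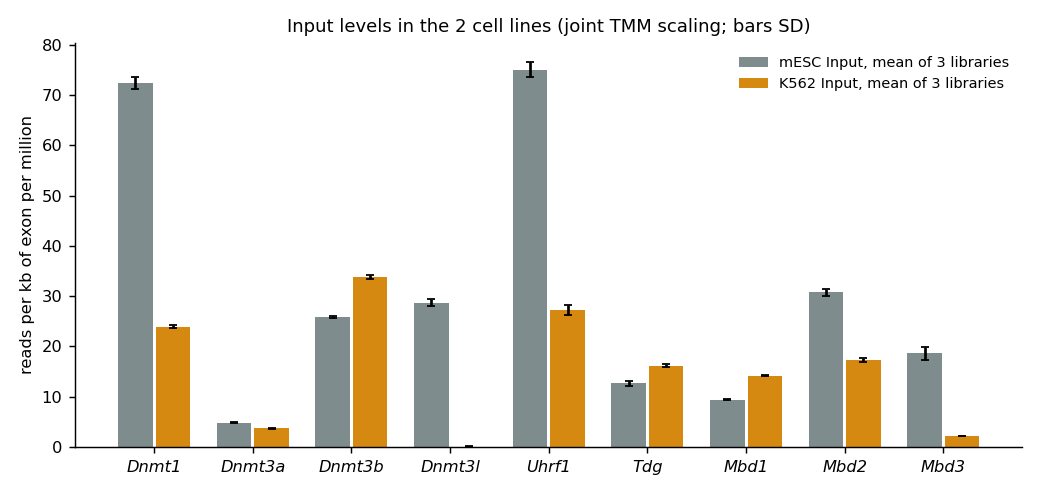
Mean Input level of each gene in CPM per kilobase of exon (bars, linear axis from 0) with its SD over the 3 mESC and the 3 K562 Input libraries, as scaled in the joint fit. Dnmt1, Uhrf1 and Mbd3 sit lower in K562, Dnmt3b, Tdg and Mbd1 slightly higher, and Dnmt3l near 0 in K562.

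Compared between the lines per kilobase in the joint fit, 6 of the 9 genes were lower in K562 Input and 3 higher, where 50.2% of all genes were lower and 36.0% higher and the median of all genes was -0.42. Dnmt1 fell from 72.4 ± 1.23 in mESC to 23.9 ± 0.286 CPM per kilobase in K562 (log2 -1.60, SE 0.02, edgeR adjusted p = 5.14e-31), a difference of -0.54 with no division by length (15379 bp of exon in human and 7377 bp in mouse), and Uhrf1 from 75.1 to 27.3 (log2 -1.46, SE 0.04, edgeR adjusted p = 1.08e-25). Dnmt3l had 6135 counts in the mESC Input libraries and 3 in those of K562, a ratio per kilobase of 445 over library sizes without TMM factors with an exact 95% interval from 152 to 2160. Mbd3 was 8.49-fold lower (log2 -3.09, SE 0.10, edgeR adjusted p = 8.93e-23), and -1.09 with no division by length. Mbd2 was 1.77-fold lower (log2 -0.83, SE 0.05, edgeR adjusted p = 3.39e-15), and with no division by length it did not pass (-0.00). Dnmt3a was lower by 0.37 on the log2 scale (SE 0.07, edgeR adjusted p = 2.09e-05) and stood 0.05 above the all-gene median. Dnmt3b was higher by 0.39 (SE 0.04, edgeR adjusted p = 2.05e-11), Tdg by 0.35 (SE 0.06) and Mbd1 by 0.59 (SE 0.05, edgeR adjusted p = 1.44e-11). Without K562 IP replicate 2, which takes part in the scaling, all values dropped by about the same amount, to -0.10 for Dnmt3b, -0.14 for Tdg and 0.10 for Mbd1, which then did not pass, with an all-gene median of -0.91.

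Over all 12 libraries, the genes nearest in pattern were found by Euclidean distance between centred log2 CPM values, among 12516 genes with a mean of at least 5 CPM. For Dnmt1 they were MYH9 (distance 0.288) and DDX46 (0.432), for Uhrf1 M6PR (0.461) and PRRC2C (0.600), and for Dnmt3b RBM10 (0.467) and KMT2C (0.548). The other distances were larger, with PPIL3 (0.728) and DYNC1I2 (0.798) for Tdg, ZBTB7A (0.728) and SAR1B (0.738) for Mbd2, and PKNOX1 (0.804) and CRY1 (0.855) for Mbd1. Dnmt3a had none so close, its nearest being PHKG1 (1.13) and KALRN (1.28), nor had Mbd3, with MSANTD3 (1.30) and ZFAND4 (1.40), or Dnmt3l, with PTGIS (1.91) and CABP1 (1.92). The median distance over all candidates was 5.60 to 13.8.

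Genes that act with the 9 were described from fixed lists. In mESC 12 of the 14 demethylation and base excision genes tested were lower in IP and 1 was higher (median log2 -1.91): Apex1, the abasic site endonuclease, stood at -4.06, Mbd4, a thymine glycosylase, at -2.60, and the oxidase Tet3 at 0.90. Other methyl-CpG readers gave 6 lower and 1 higher of 8 (median -1.56), with the zinc finger reader Zbtb4 at 1.31. All but 1 of the 13 cofactors of DNA methylation were lower (median -2.24, Pcna -3.17, Dmap1 -2.92), as were 11 of 12 NuRD subunits (median -1.73, Rbbp4 -2.75, Gatad2b -2.70) and 3 of 3 MBD1 partners (median -1.34, Setdb1 -2.03, Atf7ip -1.34). Over all genes tested 42.1% were lower and 39.9% higher, and the share lower was 90.8% among genes at 38.2 Input CPM or more, a level that several list genes do not reach (Apex1 21.7, Zbtb4 15.2 and Tet3 35.9 CPM). The IP level of Apex1, 1.31 CPM, is under the 3-count floor.

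In K562 fewer of these genes passed, where 15.0% of all genes tested were higher and 16.8% lower. Of the demethylation list 3 of 14 were lower and 1 higher (median -0.19), with TET2 at -1.11, TET1 at -0.49 and the ligase LIG3 at 0.56. Other readers gave 5 lower of 8 (median -0.89), MBD5 at -1.14 and MBD6 at -1.02. In both lines this list held MBD5 and MBD6, though the paper states that their domain is distinct and that they do not bind DNA. It reports that they prefer RNA that carries m5C. Among cofactors 4 of 11 tested were lower (median -0.26), led by the remodeller HELLS at -2.24 and the methyltransferase NSD1 at -1.11. Of 12 NuRD subunits 3 were lower and 1 higher (median -0.28), RBBP7 at -2.00, GATAD2B at -1.31 and the remodeller CHD4 at 2.30, from 3.64 CPM in Input. The IP levels of CHD4 (17.4 CPM), HELLS (17.6 CPM) and RBBP7 (15.4 CPM) are under the 3-count floor of K562 IP. Of 3 MBD1 partners 1 was lower, ATF7IP at -0.76 (median -0.68).

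Some of the 9 share exon sequence with other genes. Dnmt3a overlaps the antisense gene Dnmt3aos over 133 bp (0.799% of its exons), Dnmt3l overlaps Aire over 67 bp (2.24%) and Tdg overlaps Glt8d2 over 367 bp (6.83%), all on the opposite strand. In human, MBD3 shares 767 bp (9.7%) with a gene on the same strand, TDG 168 bp (3.44%) and DNMT1 83 bp (0.54%, S1PR2), and DNMT3L shares 241 bp (13%) with DNMT3L-AS1 on the opposite strand. Since it is not stated whether counting used the strand, counts there are uncertain to that extent.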

How the data were processed

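The files that the authors deposited hold untransformed read counts of genes in 12 caRNA libraries and m5C peak positions for the 3 mESC IP libraries. The submitters' processing notes name Trimmomatic 0.39, HISAT2 2.1.0, SAMtools 1.16.1 and MACS2, with the builds mm10 and hg38; whether counting used the strand was not stated. Summary lines (19.0% to 71.7% of records) stayed out of library sizes, which lowers IP depth most, and 0 per-sample columns went unmapped. The files use mm10 and hg38, and symbols and exons came from GENCODE M21 and 44, other releases than the study's 19 and 29.

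Counts were tested with edgeR 4.0.16 (R 4.3.3) by glmQLFit and glmQLFTest on all genes, after filterByExpr and TMM scaling, calling at 0.05 after Benjamini-Hochberg adjustment, per line for IP against Input and jointly, over shared symbols, for the interaction and for Input per kilobase. The SE is the absolute log2 value over the square root of F. Biological variation between libraries was fitted at 0.0565 (mESC), 0.00988 (K562, close to counting noise) and 0.0208 (jointly). Peaks of 1 strand sharing at least 1 bp were merged. Scripts were tested on simulated data.

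The 9 genes and all lists were chosen with earlier results of these data known. Named genes were the 9, the genes past the threshold at each end of each list (at most 2), and for each of the 9 the 2 nearest patterns; 1 list gene that this rule names is not reported here. The comparison sets above a least abundance or a least length and the Dnmt3a to Dnmt3b ratio were added after seeing the data. Alternatives were other scalings, filters, DESeq2 1.42.0, GC and length corrections, thinned Input, a replicate block and single libraries left out. Reads carry no molecular identifiers. Mouse sequences were read from GRCm38.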

Additional observations from a re-analysis of the deposited data

Results flagged for a closer look

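The IP/Input of 3 of the 9 genes differed between K562 and mESC in the interaction test of edgeR: Dnmt1 by 0.73, Uhrf1 by 1.46 and Dnmt3l by 6.39 on the log2 scale, all higher in K562. The value of Dnmt3l depends on the prior count, since it rests on 3 Input and 2 IP counts in K562, and is no measure of size; without K562 IP replicate 3 it was -2.60. Dnmt1 lost its call without K562 IP replicate 3 and with RLE scaling or DESeq2. Groups of 3 libraries were not tested for single outlying libraries.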

How the results depend on the processing

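Over all values and alternatives, 520 kept their direction and side of the threshold, 32 lost it, 18 gained it and 29 turned. The number of the 9 genes called in mESC was 8, and 5 with library size alone and 4 with Input thinned to IP depth, a draw that leaves fewer genes to test. In K562 it was 3 of 8 tested, and 5 with counts outside features in the library size and 6 with no low-count filter. It was 2 with RLE scaling, library size alone, DESeq2, the length correction or a replicate block. With thinned Input it was 0 of the 3 left to test (DNMT1, DNMT3B and UHRF1), and DNMT3A could not be tested. With the K562 Input libraries summed to 1 sample it was 1. With 1 library left out it was 1 to 3 (1 without IP replicate 1 or without IP replicate 2). For the difference between lines it was 3, and 0 with thinned Input and 1 to 3 with 1 library left out (1 without K562 IP replicate 3). Peaks were held by 5 of the 9 genes on either strand, against 1 on the gene's strand, and 1 gene had a region in at least 2 replicates against 0 in all 3.

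Signs turned as follows, and the cause was not tested. In mESC, Mbd3 was 0.39 with library size alone and 0.65 with thinned Input, Mbd1 0.30 with thinned Input and Dnmt3a -0.063 with the GC correction. In K562, UHRF1 was -0.24 with counts outside features, -0.29 with no filter, -0.16 with the GC correction and -0.050 to 0.18 with 1 library left out, and DNMT1 was 0.22 with thinned Input. For the difference between lines, RLE scaling, library size alone, DESeq2 and thinned Input gave -0.35, -0.040, -0.35 and -0.79 for Mbd1 and -0.36, -0.057, -0.36 and -0.90 for Mbd2, and leaving out 1 library gave -0.40 to 0.51 and -0.25 to 0.40. The GC correction gave 0.031 for Dnmt3a and 0.62 for Mbd3, the length correction 0.29 for Mbd3, thinned Input -0.064 for Dnmt1, and leaving out 1 library -2.60 to 9.52 for Dnmt3l. Input of Dnmt3b and Tdg ranged from -0.10 to 0.41 and from -0.14 to 0.39 with 1 library left out.

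The share of calls that were higher in IP was 48.7% in mESC with TMM, 67.2% with library size alone and 61.4% with thinned Input. In K562 it was 47.1%, and 57.1% with RLE, 64.7% with library size alone, 64.8% with DESeq2 and 31.6% with counts outside features. Relative to the all-gene median, values under TMM, RLE and library size differed by at most 0.0286. A scaling moves each gene and the median by nearly the same amount, so this small difference is no check of the values. Correlations of same-numbered deviations of IP and Input were 0.0191 to 0.0279 in mESC and -0.00658 to 0.0218 in K562. Those of differently numbered deviations were -0.0239 to -0.00155 in mESC and -0.0199 to 0.00998 in K562. In mESC every same-numbered value was thus the higher, though all were small. Whether replicate numbers pair IP with Input was not tested, and the main fits left them unpaired. With a replicate block 8 of the 9 genes were called in mESC, 2 in K562, 3 for the difference and 9 for Input. At 93110 to 111286 counts a library, K562 IP limits every value of a gene under about 10 counts.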
